A study of Mus musculus with 4 samples.

Results

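The response of NMuMG cells that stably express Vp16-TRF1ΔN to 24 h of TGFβ was described across all expressed genes. NMuMG cells derive from the epithelium of the normal mouse mammary gland and are a standard model of epithelial-to-mesenchymal transition (EMT), which TGFβ sets off in them. Vp16-TRF1ΔN joins the activation domain of the viral protein Vp16 to a mutated human TRF1, a protein that binds telomeric DNA. The series description states that the fusion serves to raise RNA that resembles TERRA, a noncoding telomeric transcript, and asks what this does to the genes of EMT. Of the 4 libraries of the series, 2 came from this line: 1 at 0 h without added agent and 1 exposed for 24 h to TGFβ (5 ng/ml). The other 2, taken at the same times, came from NMuMG cells that overexpress the mutated human TRF1 without Vp16 (TRF1ΔN) and were used for comparison. All 4 groups thus carried a TRF1 mutant and grew in medium with serum and insulin. Each group held 1 library, so no ratio given here has a replicate check and none was tested. No 24 h library without TGFβ is among the 4, so time in culture and TGFβ cannot be told apart. The labels do not say whether the line is a single clone or whether the 0 h and 24 h cells were separate cultures.

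Every gene of the count table was a candidate, and the 4 rows for the constructs were left out. Of 21971 genes, 11760 had a mean CPM of at least 1 (CPM, the usual count scaled for depth, here with TMM factors on the library sizes) over the 0 h and 24 h libraries, and these were described. Each gene has a ratio of 24 h over 0 h with a 95% interval that covers counting error only. Log2 ratios carry a prior count of 2, and fold ratios carry none. A gene was counted as higher or lower when its log2 ratio was at least 1 from 0, a 2-fold ratio, and its interval excluded 1. Pairs of values written as from one to another are the 0 h and then the 24 h library, and a range in parentheses after a fold or ratio is its interval. The members of each gene list were described by how many were counted, beside the share of all 11760 genes that was counted: 6.7% higher and 9.15% lower, or 15.9% in either direction.

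TGFβ is made as a latent complex, and after its release it binds paired type I and type II receptor kinases that phosphorylate Smad2 and Smad3, which enter the nucleus with Smad4. Their targets include inhibitors of the pathway itself, extracellular matrix genes and the Snail and Zeb repressors, which act on E-cadherin and other junction genes. In epithelial cells TGFβ also arrests the cell cycle in G1. TRF1 is a subunit of shelterin, the protein complex that covers telomeres.

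The libraries held 41958849 counts at 0 h and 35423556 counts at 24 h, with 19849 and 19411 genes at 1 count or more, and a count of 3 equalled 0.0696 and 0.0875 CPM. Mitochondrially encoded genes took 11.4% of gene counts at 0 h and 15.7% at 24 h, most of it the ribosomal RNA mt-Rnr2 (10.1% and 13.9%), and the corresponding shares in the TRF1ΔN line were 10.2% and 13.3%. A scaling without those genes gave 796 higher and 1106 lower genes of 11905 at 1 CPM, against 788 and 1076 of 11760. Of the 796, 767 were among the 788, and the 1106 held all 1076. Under it the log2 ratios of 1534 listed or named genes moved by a median of -0.0102 and by at most 0.0103. Beyond this scaling, the part of the mitochondrial shift in single ratios was not tested. The construct row named VP16 had 15 and 27 counts in the libraries labelled Vp16-TRF1ΔN, against 0 and 1 in those labelled TRF1ΔN. The row named TRF1DN had 123 and 159 counts, against 1863 and 7798 in the TRF1ΔN line, so the mutant's own row was far less abundant in the line with the fusion. RNA of the telomeric repeats is not among the rows, and TERRA was not measured here. Reads of Krt8 and Krt18, keratins of simple epithelium, were abundant at both times, but Epcam, an epithelial surface marker, had 4 counts in each library and the splicing regulator Esrp1 had 2 and 0. Vim, the mesenchymal filament vimentin, went from 3156 to 3695 CPM, so the line was rich in it before TGFβ. Markers of other cells were mostly at a few counts: 1 of 6 immune markers reached 1 CPM (Cd68), with a summed level over that gene of 3.09 and 3.21 CPM, and Ptprc had 6 and 1 counts. Among 6 endothelial markers Flt1 and Egfl7 did, both lower, with sums of 121 and 47.4 CPM, while Pecam1 had 1 and 2 counts. Of 9 fibroblast markers 4 did, Col1a1 and Pdgfra higher, S100a4 lower and Gsn not counted (272 to 530.2 CPM), with a median log2 ratio of 1.21 and sums of 720.1 and 720.1 CPM, while Col1a2 had 1 and 8 counts and Col3a1 2 and 2, and of 5 adipocyte markers 1 did (Pparg). The part of such cells in the ratios was not tested.

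With TGFβ, 788 genes reached the limit upward and 1076 downward. Most genes lay close to their 0 h level: the median log2 ratio was -0.01, the quartiles were -0.36 and 0.31, and 70.0% of genes stayed within 1.5-fold. At least 4-fold ratios were reached by 269 higher and 299 lower genes, and at least 32-fold ratios by 33 and 23. The genes counted as higher took 3.54% of gene counts at 0 h and 9.55% at 24 h, and those counted as lower took 10.0% and 3.33%. The share counted varied with level: 18.2% of genes between 1 and 3 CPM were higher and 15.5% lower, 3.69% and 6.38% of those between 100 and 300 CPM, and 8.71% and 8.21% of those above 300 CPM.

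**Figure D1:**
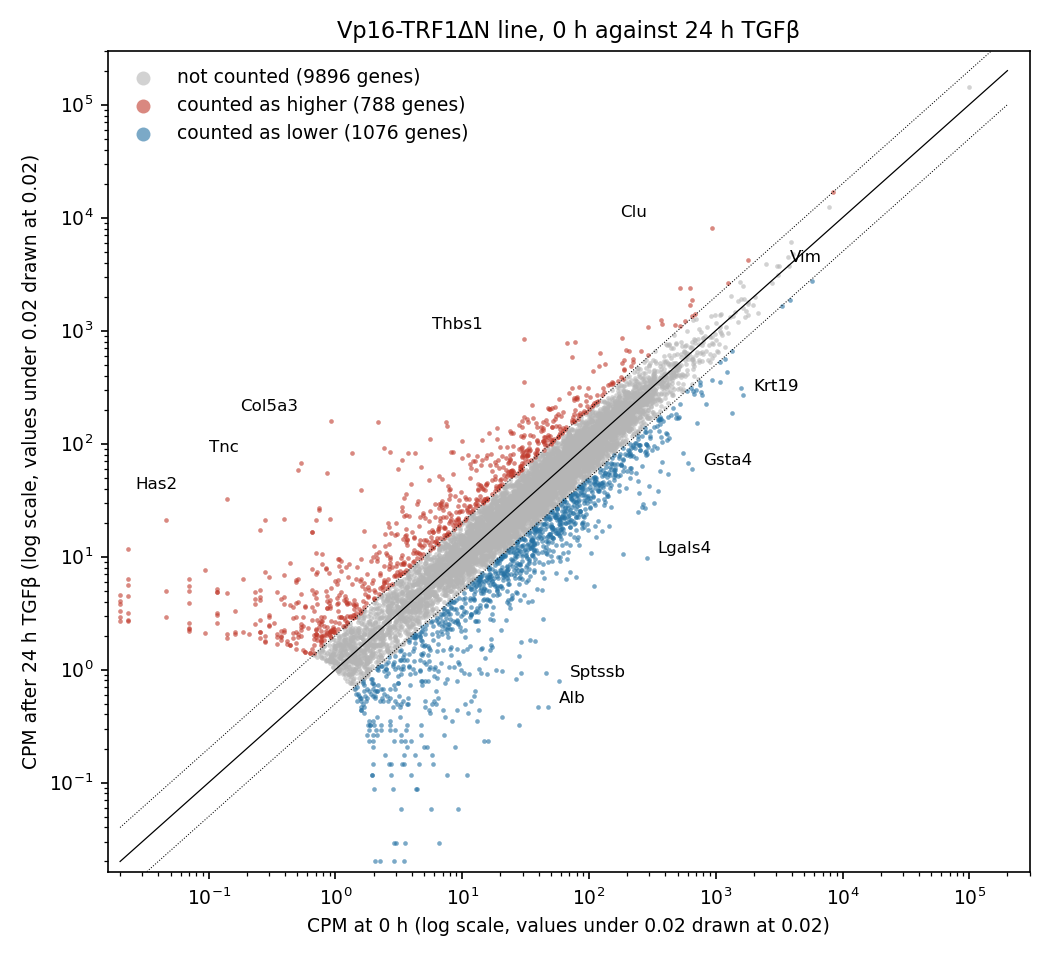
CPM at 0 h (horizontal) against CPM after 24 h TGFβ (vertical), both on log scales, for the 11760 genes, 1 library at each time. The solid line marks equal levels and the dotted lines a 2-fold ratio, values under 0.02 CPM are drawn at 0.02, and the 788 higher and 1076 lower genes lie outside the dotted lines.

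The 15 largest ratios upward included those of matrix proteins, receptors and a secreted cytokine. Has2 (mm10 15:56665627-56694539), the main hyaluronan synthase of fibroblast-like cells, went from 6 to 1098 counts and was 230.2-fold higher (105 to 629). Col5a3 (9:20770050-20815067), a chain of type V collagen, went from 40 to 5423 counts and was 171-fold higher (125 to 239). The muscle acetylcholine receptor subunit Chrna1 had 1 and 399 counts. Tnc, the matrix glycoprotein tenascin-C, was at 0.534 to 67.8 CPM (127-fold higher), and Ctsw, a cathepsin best known from cytotoxic lymphocytes, at 0.5104 to 57.8 CPM (113-fold). Lgr6, a receptor for R-spondins, stood at 2.18 to 156 CPM, 71.5-fold higher (58.3 to 88.6). Col7a1, the collagen of anchoring fibrils, Il11, a cytokine of the IL-6 family, and Ass1, an enzyme of arginine synthesis, were 61.2-fold, 67.3-fold and 54.4-fold higher. Also among the 15 largest were Klhl30, Lce1g, Ccbe1, Akap12 and Creb3l1, at 34.8-fold to 75.5-fold higher. In the 0 h library 24 of the 788 higher genes had 3 counts or fewer.

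The 15 largest ratios downward were those of genes with varied roles. Alb (5:90460897-90476602), serum albumin, went from 2057 to 16 counts and was 102-fold lower (62.8 to 179). Krt6a, a keratin of stressed and inner-layer epithelium, went from 1220 to 11 counts and was 88.2-fold lower (49.1 to 177). Mx1, an interferon-induced GTPase, had 1695 to 16 counts and was 84.2-fold lower (51.7 to 148). Sptssb, a small subunit of serine palmitoyltransferase, the first enzyme of sphingolipid synthesis, was at 58.2 to 0.788 CPM, 73.9-fold lower (50.7 to 112). Lgals4, an intestinal-type galectin, went from 289 to 9.805 CPM (29.5-fold lower). Gjb1, a gap junction connexin, Dio3, the enzyme that inactivates thyroid hormone, Ckmt1, a mitochondrial creatine kinase, and Aldh1a7, an aldehyde dehydrogenase, were 37.5-fold, 30.9-fold, 49.1-fold and 26.98-fold lower. The other 6 were Clrn3, Eps8l3, Smim6, Cbln3, Kif12 and Ugt2b36. Each gene named from these largest ratios was counted in the same direction in the TRF1ΔN line.

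**Figure D2:**
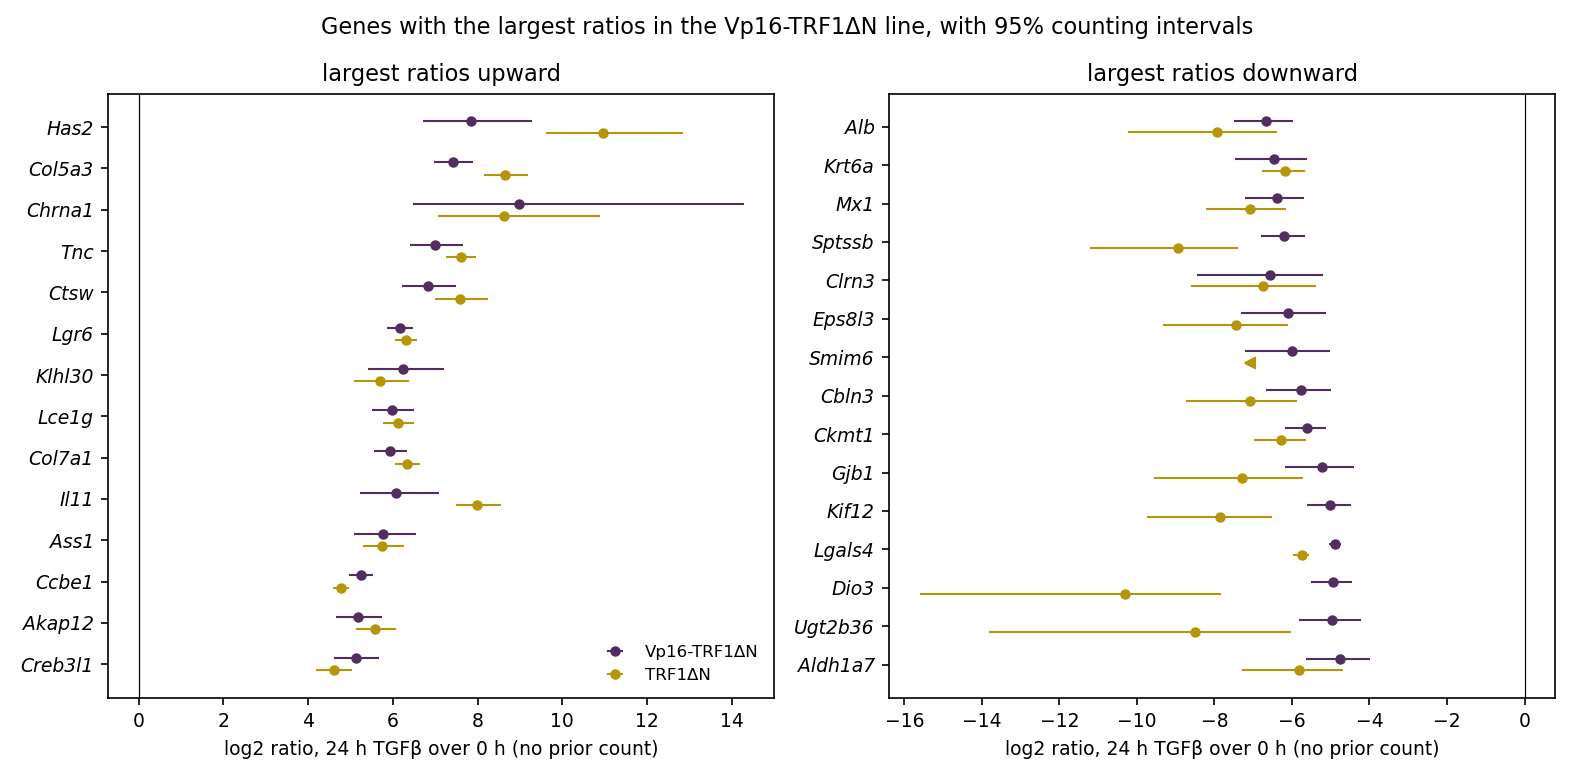
Log2 ratio of 24 h TGFβ over 0 h without a prior count (horizontal) for 14 of the 15 genes with the largest ratios upward and the 15 downward in the Vp16-TRF1ΔN line (purple points), with the TRF1ΔN line beside them (gold points). Bars are 95% counting intervals, and the arrow for Smim6 marks the bound set by 0 counts at 24 h in the TRF1ΔN line; the points of both lines lie on the same side of 0 for each gene.

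In CPM, the largest gain was that of Malat1, an abundant nuclear long noncoding RNA, from 8414 to 16909.7 CPM. Its ratio, 2.01 (2.001 to 2.018), was barely past the 2-fold limit, so whether it is counted depends on the scaling. Clu, the secreted chaperone clusterin, followed at 938 to 8135 CPM (8.67-fold higher, 8.58 to 8.76). The next gains were in Fbln2, a basement membrane glycoprotein (527 to 2393 CPM), Msn, the membrane-actin linker moesin (626 to 2405 CPM), Myh9, non-muscle myosin heavy chain (1253 to 2631 CPM), Itgb1, integrin β1 (649 to 1862 CPM), and Ctsl, cathepsin L (631 to 1697 CPM). Apob, Thbs1 and Igfbp7 completed the 10. The largest losses were in S100a6, a calcium-binding protein (5706 to 2762 CPM), Ctnnb1, β-catenin (3880.1 to 1854 CPM), Spp1, osteopontin (3348 to 1638 CPM), Krt19 (1648 to 270.03 CPM), Selenop, a selenium carrier (1588 to 310.2 CPM), and Lgals2, a galectin (1335 to 187 CPM). Anxa4, Ldha, Ccnd1 and Cxcl5 completed them. These lists leave out ribosomal RNA, and CT010467.1, annotated as a ribosomal RNA gene, went from 1784 to 4251 CPM in libraries depleted of ribosomal RNA.

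Genes of the TGFβ pathway were counted as higher more often than genes at large: 26 of 60 members at 1 CPM were higher and 2 lower, against 6.7% and 9.15% of all genes. Of the 26, 14 were among the 16 early targets, which are listed because they respond to TGFβ. A high share was thus built into that group, and the list was chosen with earlier results of these data known. Among the 8 ligands, Inhba, the βA subunit of activin, was 5.75-fold higher (5.22 to 6.35) at 11.5 to 66.2 CPM, and Gdf11, a relative of myostatin, was 2.33-fold higher (2.09 to 2.62). Tgfb1 (29.6 to 49.4 CPM), Tgfb2 (13.5 to 23.6 CPM) and Tgfb3 (6.03 to 9.98 CPM), the cytokines themselves, had ratios of 1.65 to 1.75, and Inhbb (1.62, 1.31 to 2.01) and Lefty1 (0.995, 0.742 to 1.33) were not counted either. Gdf15, a stress-responsive member of the family, was 3.21-fold lower (2.499 to 4.17). Of the 9 genes for latency and activation, 4 were higher. Thbs1, thrombospondin-1, which can activate latent TGFβ, went from 30.5 to 839.6 CPM, 27.5-fold higher (26.02 to 29.1). Lrrc32, which tethers latent TGFβ to the cell surface, went from 39 to 731 counts and was 23.6-fold higher (17.1 to 33.4). The latent TGFβ binding proteins Ltbp2 and Ltbp1 were 7.76-fold higher (6.34 to 9.57) and 2.35-fold higher (2.296 to 2.41). Their relatives Ltbp3 and Ltbp4, the integrin subunits Itgav and Itgb6 and the protease Furin had ratios of 1.18 to 1.601.

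Receptors and Smads other than Acvr1 stayed within 1.5-fold of their 0 h levels. Of the 8 receptor genes only Acvr1, the type I receptor Alk2, was counted, at 22.3 to 73.9 CPM, 3.32-fold higher (3.08 to 3.58). Tgfbr2 and Tgfbr1, the TGFβ receptors proper, had ratios of 1.35 (1.305 to 1.39) and 0.8696 (0.845 to 0.895), and Acvr1b, Acvr2a, Acvr2b, Eng and Cd109 lay between 0.695 and 1.31. None of the 5 Smads was counted: Smad3 had the highest ratio, 1.44 (1.397 to 1.49), Smad2 the lowest, 0.932 (0.878 to 0.988), and Smad1, Smad4 and Smad5 lay between. Of 14 genes of negative feedback, 5 were higher. Ldlrad4 and Pmepa1, which keep Smads from the receptor, were 4.53-fold higher (3.98 to 5.17) and 4.06-fold higher (3.93 to 4.19), Pmepa1 at 119.9 to 487 CPM. The corepressors Skil and Ski were at 147 to 334 CPM and 81.4 to 166 CPM. Smad7, the inhibitory Smad, was at 44.7 to 96.8 CPM, 2.16-fold higher (2.04 to 2.29). Nedd4l, a ubiquitin ligase for Smads, was 2.296-fold lower (2.09 to 2.53). Tgif1, Fst, Ppp1r15a, Smurf1 and Smurf2 had ratios of 1.37 to 1.88, and Ppm1a, Smad6 and Tgif2 of 0.728 to 1.004.

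Early targets, a list of genes known as direct or rapid responders, were counted as higher in 14 of 16 cases, with a median log2 ratio of 2.03. Il11 went from 11 to 589 counts, Wnt9a, a Wnt ligand, from 8 to 216 counts, and Lmcd1, a LIM-domain cofactor, from 69 to 1340 counts. Jag1, a Notch ligand, was 5.15-fold higher (4.995 to 5.31) at 123 to 634 CPM. Bhlhe40, a repressor of the helix-loop-helix family, Edn1, endothelin-1, Pdgfb, a platelet-derived growth factor, and the matricellular genes Ccn1 and Ccn2 were 3.21 to 4.21-fold higher, and Itga5 and Col1a1 5.45-fold and 8.97-fold. Cdkn2b, the CDK inhibitor p15, was at 44.9 to 115 CPM, 2.56-fold higher (2.42 to 2.701). The 2 not counted were Vegfa, 1.84 (1.75 to 1.94), and the EGF receptor ligand Hbegf, 0.868 (0.811 to 0.927). Another 4 early targets lay under 1 CPM, among them Tagln with 2 and 23 counts and Nox4 with 0 and 7.

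**Figure D3:**
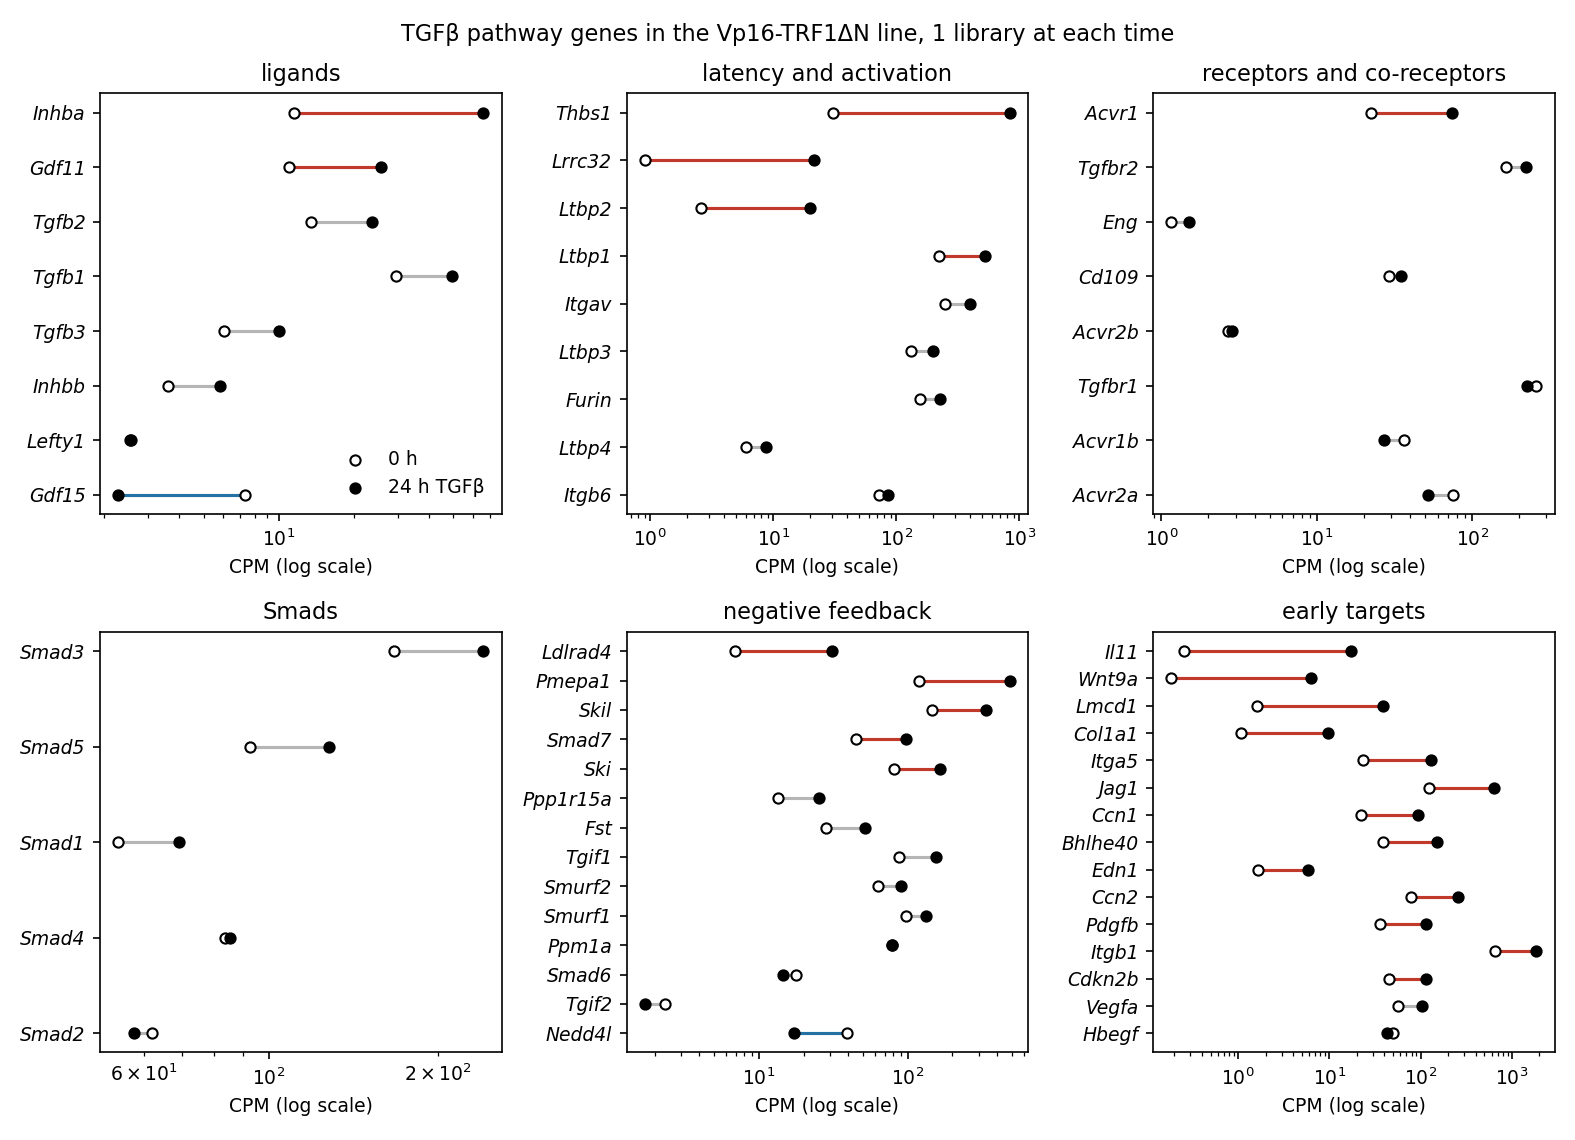
CPM on a log scale (horizontal) of 59 of the 60 TGFβ pathway genes at 0 h (open circles) and after 24 h TGFβ (filled circles), by role, 1 library at each time. Red lines join genes counted as higher, blue lower and grey neither; 13 of the 15 early targets drawn are red, and none of the 5 Smads is.

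Of 6 BMP-responsive targets 3 were lower and 1 higher, and of 33 EMT transcription factors 9 were higher and 3 lower. The whole BMP list had 4 of 16 lower and 3 higher. Id1, Id2 and Atoh8, helix-loop-helix genes that BMP signalling induces, were lower: Id1 went from 139 to 34.7 CPM, 3.99-fold lower (3.75 to 4.25), Id2 from 375 to 103 CPM, 3.64-fold lower (3.51 to 3.77), and Atoh8 from 12.6 to 3.21 CPM. Id3 was at 0.713 (0.668 to 0.762), Bmp4, a BMP ligand, was 2.33-fold lower (2.07 to 2.63), and Dlx3, a homeobox gene of the same list, was 2.69-fold higher (2.45 to 2.96). Among 8 genes at 1 CPM of the group named for Snail, Zeb and Twist, which also holds other factors, 4 were higher. Snai1 went from 30 to 167 counts and was 7.002-fold higher (4.73 to 10.7), Snai2 from 59 to 131 counts, 2.79-fold higher (2.04 to 3.86). Zeb1 and Zeb2 went from 38.98 to 139 CPM and from 28.2 to 89.96 CPM, and were 3.57-fold higher (3.38 to 3.78) and 3.19-fold higher (2.98 to 3.41). Twist2 went from 10.3 to 5.25 CPM, a ratio of 0.508 (0.425 to 0.605), Snai3 had 0.577 (0.419 to 0.787), and Twist1 had 2 counts and 1. Of 11 epithelial factors, Ehf, an Ets factor of glandular epithelium, was 4.79-fold lower (4.52 to 5.07) at 195 to 40.7 CPM, Klf5 2.803-fold lower (2.59 to 3.04) and the forkhead factor Foxa2 2.31-fold lower (2.16 to 2.47). Gata3, a luminal mammary factor, was 3.44-fold higher (2.30 to 5.26) but only at 0.789 to 2.71 CPM. Among 11 AP-1 subunits Jun, Fosl2, Atf3 and Junb were 4.91-fold, 4.16-fold, 3.89-fold and 2.35-fold higher, whereas Fos, the immediate early subunit, was 3.73-fold lower (2.74 to 5.15) at 5.54 to 1.49 CPM.

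Junction and polarity genes went both ways, and 10 of 62 were lower and 9 higher. Cdh1, E-cadherin, went from 368 to 166 CPM, 2.22-fold lower (2.16 to 2.29), and Cdh2, N-cadherin, from 77.2 to 197 CPM, 2.55-fold higher (2.45 to 2.66). Among the other cadherin and nectin genes Cdh6 was 2.43-fold higher (2.36 to 2.495), and Nectin1 4.07-fold higher (3.56 to 4.66). None of 13 tight junction genes other than claudins was higher and 3 were lower: Tjp3 (17.4 to 3.59 CPM) and Marveld2 (8.07 to 2.28 CPM), which are scaffold and tricellular junction components, were 4.85-fold and 3.55-fold lower, and Lsr 2.05-fold. Ocln, occludin, had a ratio of 0.647 (0.61004 to 0.686). Cldn4, a claudin, had 1 and 152 counts. Of the polarity genes Llgl2, Crb3 and Ezr, of the basolateral, apical and microvillar domains, were 3.94-fold lower (3.53 to 4.398), 2.69-fold lower (2.23 to 3.25) and, for Ezr, 2.12-fold lower (2.07 to 2.16). Pkp1, a plakophilin, was the only 1 of 8 desmosome genes counted, at 18.7 to 137 CPM, 7.32-fold higher (6.79 to 7.902).

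Keratins split by gene. Krt19 went from 1648 to 270.03 CPM, 6.102-fold lower (5.97 to 6.24), and Krt76 and Krt79 were 21.2-fold and 4.01-fold lower, while Krt18 (2506 to 3862 CPM) and Krt8 (1574 to 1905 CPM) had ratios of 1.54 and 1.21. Krt16, a keratin of stressed skin, was 4.17-fold higher (2.96 to 5.99) at 1.02 to 4.26 CPM. Vimentin had a ratio of 1.17 (1.16 to 1.18), and the filament gene Nes, nestin, was 4.53-fold higher (3.58 to 5.77). Surface and secreted products of epithelium had the most negative median of the 31 lists, -2.22 over 16 genes, with 13 lower. Muc1, a membrane mucin, was 8.43-fold lower (7.06 to 10.1), Tmprss2, a membrane serine protease, 10.98-fold lower (7.67 to 16.3), and Lcn2, lipocalin-2, 4.92-fold lower (4.397 to 5.53). Liver-type secreted proteins made up 10 of these 16 genes, with 8 lower and a median of -2.66. The other 6, of mucins, proteases and inhibitors, had 5 lower and a median of -1.93. Of the liver-type genes, Ttr, transthyretin, had 149 and 0 counts, at least 39.5-fold lower against 3 counts. Itih2, a protease inhibitor that binds hyaluronan, was 18.4-fold lower (13.1 to 26.8) and Hp, haptoglobin, 24.4-fold lower (10.99 to 67.3). Apob, apolipoprotein B, was the exception, 3.36-fold higher (3.304 to 3.43) at 369.99 to 1245 CPM.

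Extracellular matrix genes were counted as higher in 34 of 68 cases and lower in 5. Of 16 collagens 8 were higher and none lower. Col7a1 went from 1.35 to 82.3 CPM, Col5a1 from 4.27 to 82.03 CPM and Col1a1, the main fibrillar chain, from only 1.07 to 9.57 CPM. Col4a1 and Col4a2, the basement membrane network, had ratios of 1.63 (1.597 to 1.67) and 1.599 (1.54 to 1.66), and Col15a1 the lowest ratio, 0.676 (0.565 to 0.808). Fn1, fibronectin, went from 78.1 to 795 CPM, 10.2-fold higher (9.83 to 10.6). Ccn4, a matricellular protein, was 7.998-fold higher (7.702 to 8.31) and Smoc2 13.9-fold higher (8.199 to 25.4). In the same group, Tnxb, tenascin-X, Nid2, nidogen-2, and Thbs3 were 10.5-fold, 7.51-fold and 2.97-fold lower, and Tnxb overlaps Cyp21a1, so their reads may not be separable. Lox, lysyl oxidase, which cross-links collagen and elastin, had 1 and 108 counts, and Plod2, a collagen lysyl hydroxylase, was 4.67-fold higher (4.41 to 4.96). Sdc3, a syndecan, stood out among 9 proteoglycans at 30.995 to 349.7 CPM, 11.3-fold higher (10.7 to 11.9). The hyaluronan-binding gene Tnfaip6 had 0 and 155 counts, at least 64.98-fold higher. Hmmr, a hyaluronan receptor that is also a mitotic spindle protein, was 3.16-fold lower (2.98 to 3.35).

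Proteases and their inhibitors leaned upward: 16 of 35 were higher and 4 lower. Mmp12 had 0 and 93 counts, at least 38.99-fold higher, and Mmp14, a membrane-type collagenase, was 2.84-fold higher (2.73 to 2.95) at 94.03 to 267 CPM. Adam12, a metalloproteinase of mesenchymal cells, was 19.1-fold higher (16.04 to 22.9), and Adamts7, Adamts6 and Adamts12 were 5.49-fold to 7.66-fold higher. Of the inhibitors, Timp3 went from 2.71 to 84.1 CPM, 30.98-fold higher (25.7 to 37.6), and Timp1 from 46.1 to 162 CPM, 3.52-fold higher (3.34 to 3.703). Mmp28 was 2.39-fold lower (2.202 to 2.595) and Mmp13 had a ratio of 0.535 (0.476 to 0.601).

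Integrins went both ways by subunit, with 3 of 13 higher and 4 lower. Itga5 and Itgb1, which pair as the fibronectin receptor, went from 23.7 to 129 CPM and from 649 to 1862 CPM, and Itgb5 was 2.04-fold higher (1.97 to 2.12). Itga6, the laminin-binding chain of epithelium, was 2.29-fold lower (2.1997 to 2.38), Itga1, a collagen receptor chain, 5.05-fold lower (4.46 to 5.73) and Itgb7, known from lymphocytes, 20.1-fold lower (17.4 to 23.4). Among 24 focal adhesion genes 8 were higher and none lower, including Tns1 (7.48-fold) and Zyx, zyxin (5.59-fold). Of 19 contractile genes 6 were higher, among them Synpo, synaptopodin (13.4-fold higher, 9.44 to 19.7), Pdlim7 (4.37-fold), the calponins Cnn2 and Cnn3 (3.09-fold and 3.06-fold), and 1 was lower, Mylk, the myosin light chain kinase (2.96-fold lower, 2.74 to 3.204). Actb, β-actin, was at 3953 to 6092 CPM, a ratio of 1.54 (1.53 to 1.55). Smooth muscle actin, Acta2, had 1 and 33 counts, below the 1 CPM filter.

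Targets of YAP and TAZ, coactivators that act with TEAD factors, were higher in 6 of 21 cases. Nt5e, the ectonucleotidase CD73, was 22.2-fold higher (18.9 to 26.1), Gadd45b 4.54-fold higher (4.13 to 4.99), Ankrd1 3.44-fold higher (3.35 to 3.52) at 197 to 677 CPM, Ccn1 4.21-fold higher (3.91 to 4.52) and Ccn2 3.25-fold higher (3.12 to 3.38). F3, tissue factor, was 2.01-fold lower (1.88 to 2.16). The letters CATTCC, on either strand, stood in the 250 bases before the start of 7 of the 15 targets with a RefSeq promoter, against 12.6% of 27025 promoters and 10.5% of the 9030 of genes at 1 CPM. Only 2 of those 7 genes were counted. The Ccn1 promoter is shown because Ccn1 is a standard YAP target that was counted as higher (chr3:145649986-145650235, minus strand, RefSeq GRCm38.p6, 5′ to 3′, the match in capitals, beginning 103 bases before the start).
Ccn1: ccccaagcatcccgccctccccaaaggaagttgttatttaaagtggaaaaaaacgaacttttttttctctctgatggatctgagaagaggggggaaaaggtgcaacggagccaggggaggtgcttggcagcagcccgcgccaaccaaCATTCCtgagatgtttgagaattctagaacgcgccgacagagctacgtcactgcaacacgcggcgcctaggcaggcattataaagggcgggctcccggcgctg

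Growth factors and cytokines differed by family, with 23 of 76 higher and 11 lower. Of 11 IL-6 family genes 3 were higher, among them Il11 and Lif (2.85-fold higher, 2.5997 to 3.13), and the shared receptor Il6st had a ratio of 0.965 (0.937 to 0.994). Pdgfa was 5.74-fold higher (5.32 to 6.197) at 18.98 to 109 CPM, Vegfc 3.78-fold higher (3.49 to 4.097) and Pdgfra 2.86-fold higher (1.87 to 4.45), whereas Flt1, a VEGF receptor, was 2.52-fold lower (2.38 to 2.67). None of 12 EGF family genes was higher and 4 were lower: the ligands Btc, Ereg and Areg were 2.73-fold, 2.44-fold and 2.08-fold lower and the receptor Erbb3 2.83-fold. The FGF receptors went opposite ways, with Fgfr2 at 16.6 to 2.801 CPM, 5.93-fold lower (4.79 to 7.42), and Fgfr1 at 1.04 to 9.57 CPM, 9.17-fold higher (6.699 to 12.8). Of their ligands Fgf1 was 7.68-fold lower (7.01 to 8.43) and Fgf2 went from 7 to 71 counts. Angptl2 was 19.5-fold higher (17.1 to 22.3) and Angpt1 8.46-fold lower (7.23 to 9.95). In the Notch list Notch1 was 4.99-fold lower (4.597 to 5.42) at 96.8 to 19.4 CPM, Notch4 6.72-fold higher (4.99 to 9.23). Fzd2, a Frizzled receptor, was 4.28-fold higher (3.87 to 4.74) and Wnt4 2.84-fold lower (2.43 to 3.32). Of 20 semaphorins and plexins 4 were higher, including Plxna4 (18.9-fold higher, 16.9 to 21.2) and Sema4f (6 to 162 counts), and 5 lower, including Sema3c (759 to 288 CPM). Of 21 ephrin, netrin and Slit genes 8 were higher, including Ephb2 (20.8-fold higher, 11.004 to 44.1), and 1 lower, Slit2 (4.21-fold lower, 3.47 to 5.13).

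Most cell cycle genes were lower. Of 182 members, 158 were counted as lower and 3 as higher, against 9.15% and 6.7% of all genes. The group of D cyclins, CDK inhibitors and Myc was mixed, with 6 of 21 lower, 2 higher and a median log2 ratio of -0.30. Of 50 genes of G1/S and DNA replication 46 were lower, with a median log2 ratio of -1.66 and a summed level of 4867 CPM at 0 h and 1541 CPM at 24 h. E2f2, an E2F factor, went from 17.01 to 1.66 CPM, 10.2-fold lower (7.803 to 13.6), Ung, uracil-DNA glycosylase, from 16.8 to 1.87 CPM, 8.98-fold lower (6.95 to 11.8), and Tk1, thymidine kinase, from 80.1 to 13.9 CPM, 5.77-fold lower (5.24 to 6.36). Cdc6, a loader of the replicative helicase, was 5.64-fold lower (5.01 to 6.38). The helicase subunits Mcm5 and Mcm6 were 5.22-fold lower (4.95 to 5.502) and 3.22-fold lower (3.11 to 3.33). Gins4, Rfc3, Gins3 and Pold2 were the 4 members not counted, at ratios of 0.504 to 0.643.

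Mitotic genes were lower in 53 of 56 cases, with a median of -1.54 and a summed level of 8308 CPM at 0 h and 2852 CPM at 24 h. Mki67, the proliferation antigen Ki-67, went from 831 to 223 CPM, 3.73-fold lower (3.64 to 3.82), and Kif11, the spindle kinesin Eg5, from 409.7 to 108 CPM, 3.79-fold lower (3.65 to 3.92). Mybl2, a factor that drives mitotic transcription, was 4.54-fold lower (3.85 to 5.37), Ect2, which triggers cytokinesis, 4.26-fold lower (4.04 to 4.49), Cdc25c, a mitotic phosphatase, 4.09-fold lower (3.51 to 4.79) and Birc5, survivin, 4.06-fold lower (3.76 to 4.39). Bub3, Prc1 and Kif18a were not counted, with Bub3 at 0.729 (0.699 to 0.7602). Of 55 histone genes of the replication-dependent class 53 were lower, with the most negative median of the 4 cell cycle groups, -2.01. Hist1h1a, a linker histone, was 9.78-fold lower (9.12 to 10.5) at 245 to 25.01 CPM, and Hist3h2a was the only member counted as higher, 2.23-fold higher (1.79 to 2.78). Histone genes are near copies of each other, so the counts of single genes are uncertain. Of the regulators, Ccnd1, cyclin D1, was 2.07-fold lower (2.03 to 2.097) at 1349.6 to 653 CPM, and the CDK inhibitors Cdkn2b, Cdkn1a (p21) and Cdkn2c had ratios of 2.56 (2.42 to 2.701), 0.702 (0.669 to 0.737) and 0.317 (0.287 to 0.348). Myc was at 72.3 to 75.4 CPM, a ratio of 1.04 (0.9897 to 1.099).

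Promoters of these genes were read for the letters of 2 textbook elements, the E2F site in G1/S genes and the CHR element with CCAAT boxes in mitotic genes. The letters TTTCGCGC or TTTGGCGC, on either strand, stood in the 250 bases before the start of 5 of 41 G1/S promoters (12.2%), against 0.673% of 27025 promoters and 1.42% of the 9030 of genes at 1 CPM. TTTGAA stood in 16 of 47 mitotic promoters (34.0%), against 16.3% and 10.2%, and CCAAT in 33 of 47 (70.2%), against 34.5% and 37.1%. Both stood together in 15 of 47 (31.9%), against 5.73% and 4.03%. A match is a description and not a bound site. The promoters below were taken from the lower genes with a match in order of ratio, leaving out windows that overlap an annotated exon, such as those of Orc1, Ect2 and Cdc20. Ccnb2 is shown in place of Kif14 because its window holds 3 CCAAT matches. Capitals mark the matches, and overlapping matches run together. They are written 5′ to 3′ from RefSeq GRCm38.p6 and end at the base before the start. Mcm5 (chr8:75109259-75109508, plus strand) and Mcm6 (chr1:128359706-128359955, minus strand) show the E2F letters, and Kif11 (chr19:37376132-37376381, plus strand), Mki67 (chr7:135716380-135716629, minus strand) and Ccnb2 (chr9:70421555-70421804, minus strand), the last for cyclin B2, show TTTGAA and CCAAT or their complements.
Mcm5: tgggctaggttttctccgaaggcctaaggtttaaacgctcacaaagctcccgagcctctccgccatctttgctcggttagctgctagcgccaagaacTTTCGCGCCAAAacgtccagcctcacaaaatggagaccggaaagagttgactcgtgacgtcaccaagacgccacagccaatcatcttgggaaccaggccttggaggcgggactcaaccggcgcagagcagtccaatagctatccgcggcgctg
Mcm6: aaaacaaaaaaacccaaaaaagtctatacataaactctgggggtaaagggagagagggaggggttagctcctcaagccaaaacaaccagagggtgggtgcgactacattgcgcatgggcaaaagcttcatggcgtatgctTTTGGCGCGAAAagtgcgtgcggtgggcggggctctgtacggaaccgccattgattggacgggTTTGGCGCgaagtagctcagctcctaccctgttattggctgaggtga
Kif11: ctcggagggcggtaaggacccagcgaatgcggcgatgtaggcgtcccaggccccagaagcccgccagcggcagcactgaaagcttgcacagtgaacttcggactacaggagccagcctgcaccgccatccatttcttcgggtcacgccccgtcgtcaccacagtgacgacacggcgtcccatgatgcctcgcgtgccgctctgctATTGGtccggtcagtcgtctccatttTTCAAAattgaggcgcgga
Mki67: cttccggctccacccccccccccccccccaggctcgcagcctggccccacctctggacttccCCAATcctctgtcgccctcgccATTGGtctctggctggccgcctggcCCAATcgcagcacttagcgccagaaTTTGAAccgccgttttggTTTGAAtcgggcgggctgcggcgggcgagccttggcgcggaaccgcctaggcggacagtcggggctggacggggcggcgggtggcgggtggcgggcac
Ccnb2: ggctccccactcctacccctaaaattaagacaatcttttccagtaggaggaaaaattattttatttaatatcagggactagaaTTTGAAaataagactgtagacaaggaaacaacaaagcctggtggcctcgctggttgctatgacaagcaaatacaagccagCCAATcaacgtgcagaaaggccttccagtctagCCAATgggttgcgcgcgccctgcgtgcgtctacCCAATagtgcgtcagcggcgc
The Mcm5 window holds 2 overlapping E2F matches and the Mcm6 window 3. The Kif11 window has 1 match to TTTGAA and 1 to CCAAT, Mki67 has 2 and 3, and Ccnb2 has 1 and 3. Ccnb2 was 3.37-fold lower (3.12 to 3.63).

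In all, 11 searches of this kind were made, each in the promoters of 1 list. The others are given here beside the shares of all promoters and of those of genes at 1 CPM. In early TGFβ targets neither the AP-1 letters TGAGTCA nor the Smad palindrome GTCTAGAC stood in any of 10 promoters, against 4.43% and 3.23% for the first and 0.174% and 0.199% for the second. The sterol regulatory element stood in 0 of 16 cholesterol gene promoters, against 0.0629% and 0.0111%. At shares this low, 0 matches in 10 or 16 promoters cannot show that a motif is rarer there. The Snail and Zeb E-box CAGGTG stood in 1 of 9 cadherin and catenin promoters (11.1%), against 17.1% and 14.3%. The CArG box stood in 2 of 17 contractile gene promoters (11.8%), against 1.399% and 1.12%. The interferon-stimulated response element stood in 4 of 17 promoters (23.5%), against 3.04% and 2.41%, and the amino acid element TGATGNAAN in 6 of 27 ATF4-linked promoters (22.2%), against 3.51% and 1.83%.

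The 7 shelterin genes stayed within 2-fold of their 0 h levels, and none was counted. Over all genes 15.9% were counted in either direction, a share at which few of 7 would be. Terf1, the mouse gene for TRF1, went from 851 to 478 counts, a ratio of 0.706 (0.6303 to 0.791), and Tinf2, which bridges TRF1 and TRF2, had 0.664 (0.595 to 0.7397). Terf2, TRF2, had 1.08 (0.986 to 1.19), Pot1a and Pot1b, which bind the single-stranded overhang, 0.958 (0.882 to 1.04) and 1.26 (1.11 to 1.44), Acd, TPP1, 0.928 (0.853 to 1.01), and Terf2ip, RAP1, 1.13 (1.04 to 1.22). None of 11 genes of telomerase and the Cst complex was counted, with Tert, the catalytic subunit, at 81 and 43 counts and Dkc1, dyskerin, at 0.591 (0.561 to 0.622). Of 19 helicases, tankyrases and factors linked to TERRA, 3 were lower: Blm, a RecQ helicase, 2.45-fold lower (2.21 to 2.73), Rtel1, a helicase of telomere replication, 2.14-fold lower (2.02 to 2.28), and Suv39h2, a histone H3K9 methyltransferase, 2.15-fold lower (1.82 to 2.54). Among 23 genes of homologous recombination and the Fanconi pathway 19 were lower, including Rad51ap1 (4.005-fold lower, 3.49 to 4.61), Fanci (3.84-fold) and Fanca (3.73-fold). Of 30 p53 targets 1 was higher, Gadd45a (9.88-fold higher, 8.86 to 11.1), and 2 were lower, Ephx1 (2.95-fold) and Ddb2 (2.39-fold). The shares over all genes were 6.7% higher and 9.15% lower. Of 32 Polycomb genes 2 were lower and none higher, against the same shares of all genes. Ezh2, the H3K27 methyltransferase, had a ratio of 0.673 (0.632 to 0.716).

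Detoxification enzymes were lower in 26 of 69 cases and higher in 4. Of 14 glutathione transferases 9 were lower: Gsta4 went from 653 to 59.5 CPM, 10.98-fold lower (10.5 to 11.5), Gstm1 was 5.67-fold lower (5.12 to 6.28) and Gsta1 had 88 and 0 counts, at least 23.3-fold lower. Among aldehyde and aldo-keto enzymes Aldh3a1 was 17.4-fold lower (15.7 to 19.4), Aldh1a1, which makes retinoic acid, 10.9-fold lower (10.2 to 11.6) at 325 to 29.8 CPM, and Akr1c19 10.2-fold lower (9.54 to 10.9), while Aldh1l1, a folate enzyme, had 3 and 217 counts. Gclc, the catalytic subunit of glutathione synthesis, was 4.68-fold lower (4.54 to 4.82) at 716 to 153 CPM. Slc7a11, the cystine importer, was 12.5-fold lower (8.68 to 18.6). It belongs also to the ATF4 list, where Cth and Psat1, enzymes of cysteine and serine synthesis, were 6.03-fold and 5.52-fold lower and the glutamine importer Slc1a5 5.08-fold. In all 8 of 32 ATF4-linked genes were lower and 3 higher, with Nupr1 at 3.48-fold higher (3.28 to 3.69). The unfolded protein response list had 1 of 22 counted, Herpud1, 2.84-fold lower (2.74 to 2.96), and Hspa5, the chaperone BiP, had a ratio of 0.928 (0.911 to 0.946).

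Few carbon and lipid metabolism genes were counted, but more lay below than above their 0 h level. Of 139 carbon metabolism genes 7 were lower and 4 higher, and 112 had a log2 ratio below 0. Of 85 lipid genes 9 were lower and 4 higher, and 59 had a log2 ratio below 0. Over all 11760 genes 9.15% were lower and 6.7% higher, and 5784 had a log2 ratio above 0. Ldha, lactate dehydrogenase A, went from 1083 to 351 CPM, 3.09-fold lower (3.03 to 3.15), and Slc16a1, a lactate transporter, was 2.56-fold lower (2.47 to 2.67), while Hk2, hexokinase 2, and Pfkfb4 and Pfkfb3, which set the level of a glycolysis activator, were 2.57-fold, 6.78-fold and 2.43-fold higher. G6pdx and Idh1, which supply NADPH, were 2.78-fold and 2.34-fold lower. Gapdh had 566 and 217 counts and shares reads with many pseudogene copies. Of 24 cholesterol synthesis and uptake genes 2 were lower and none higher, against 9.15% and 6.7% of all genes. Of 22 fatty acid synthesis genes 5 were lower, among them Scd1 (2.74-fold) and Dgat2 (2.83-fold). None of 71 nuclear-encoded respiratory chain genes was counted, with a median log2 ratio of -0.29, and none of the 9 mitochondrially encoded genes, with a median of 0.54. None of 76 ribosomal protein genes and none of 27 ribosome biogenesis genes was counted, with medians of -0.17 and -0.37.

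Immune genes showed no common direction, with 9 of 72 higher and 9 lower. Besides Mx1, Mx2 was 2.17-fold lower (1.37 to 3.55) among 23 interferon-stimulated genes, and Oasl2, Xaf1, Gbp3 and Gbp2 were 6.1002-fold, 4.05-fold, 3.55-fold and 2.02-fold higher, the first 2 from 20 and 18 counts at 0 h. B2m, the light chain of MHC class I, was 2.199-fold higher (2.14 to 2.26) at 177 to 389.9 CPM. The chemokine Ccl20 was 2.89-fold lower (2.67 to 3.14), Cxcl5 2.14-fold lower (2.105 to 2.18), and Ccl7 was 2.32-fold higher (2.18 to 2.46). Of 25 NF-κB and acute inflammation genes, Ptgs2, cyclooxygenase-2, was 5.38-fold higher (5.06 to 5.72), and of the 5 lower genes Saa3, Lcn2, Cd14 and Icam1 were 2.62-fold to 5.65-fold lower.

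**Figure D4:**
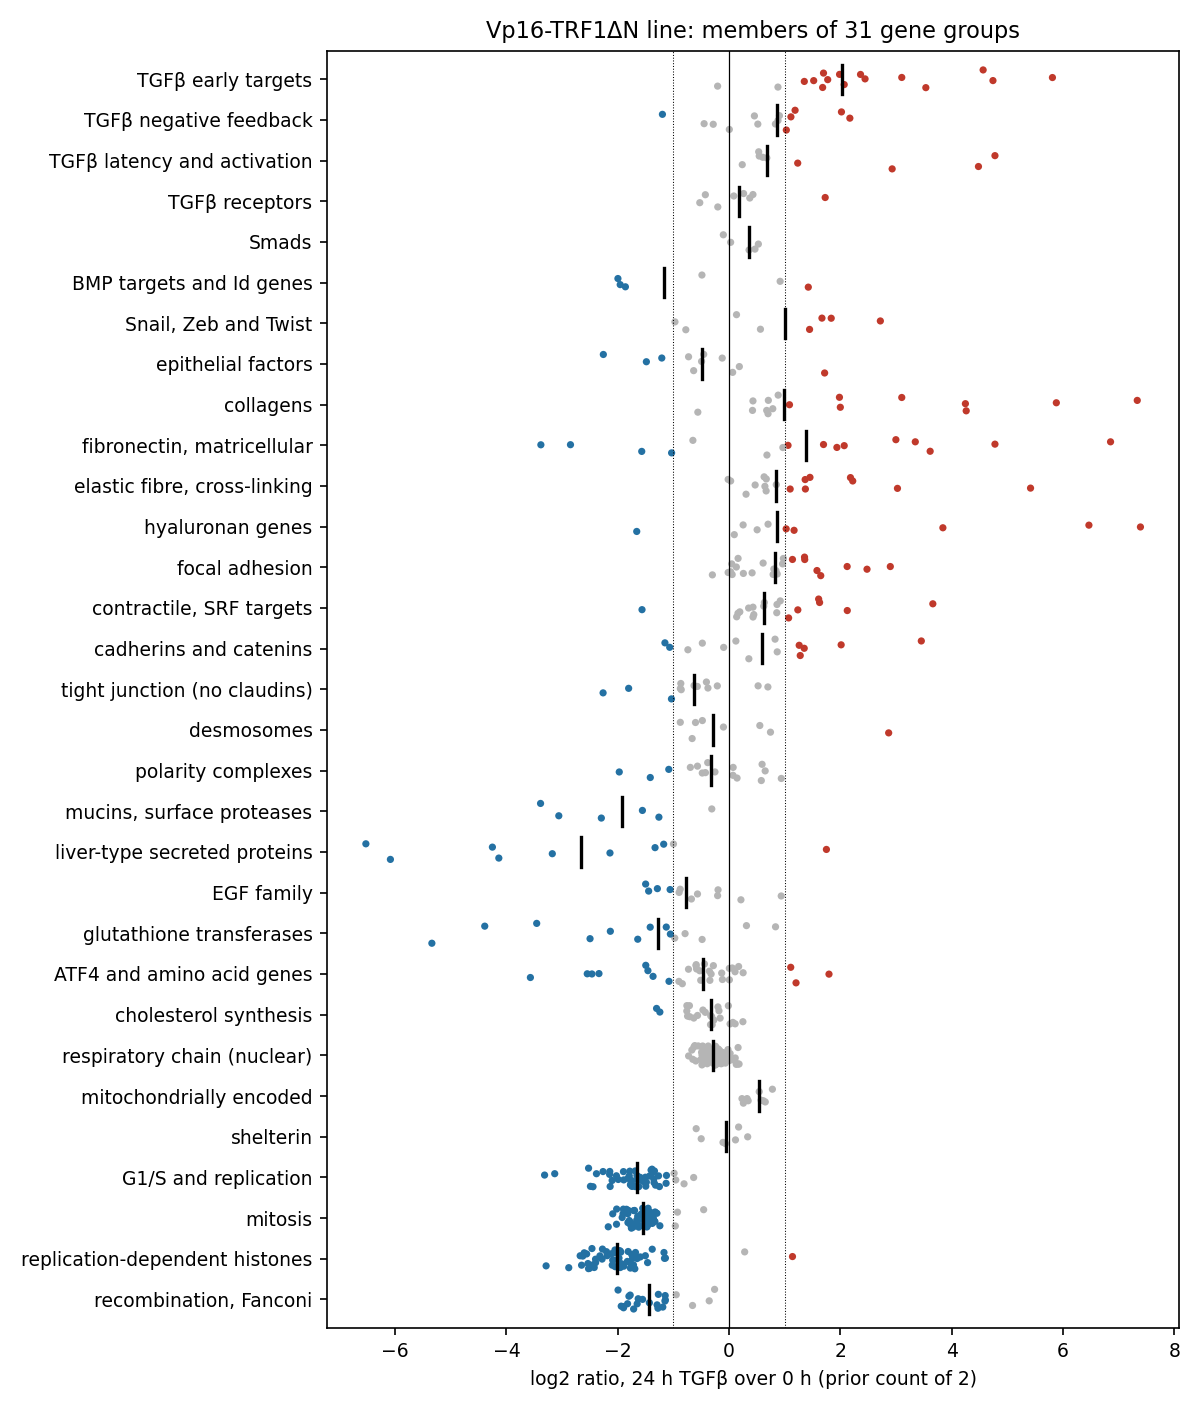
Log2 ratio of 24 h TGFβ over 0 h (horizontal, prior count of 2) for each member at 1 CPM or more of 31 gene groups in the Vp16-TRF1ΔN line, 1 point a gene and a black bar at the group's median. Red points were counted as higher, blue as lower and grey as neither, and the dotted lines mark a 2-fold ratio; the 4 groups at the foot, of replication, mitosis, histones and recombination, have medians of -1.43 to -2.01.

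The response was set beside that of the TRF1ΔN line, which shares no library with it. There, 1017 genes (8.64% of 11771) were counted as higher and 1269 (10.8%) as lower. Of the 788 genes higher in the Vp16-TRF1ΔN line, 684 (86.8%) were among those 1017 (67.3% of them), and of the 1076 lower genes 934 (86.8%) were among the 1269 (73.6% of them). No gene was counted in opposite directions. Of the 104 higher genes not counted in the TRF1ΔN line, 80 were past 1.5-fold the same way there, and of the 142 lower genes, 120 were. The genes counted here had slightly smaller ratios than in the TRF1ΔN line: the median log2 ratio of the 788 higher genes was 1.58 here and 1.79 there, and of the 1076 lower genes -1.60 and -1.78. Since the genes were chosen by their ratio in the Vp16-TRF1ΔN line, that choice by itself favours larger ratios here. With 1 library a group no difference between the lines could be tested, and the values that follow are descriptions.

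Early TGFβ targets had the lower ratio in the Vp16-TRF1ΔN line in 15 of 16 cases, with medians of 2.03 here and 3.02 in the TRF1ΔN line. Their summed level was 1194 CPM here and 1170.5 CPM in the TRF1ΔN line at 0 h, and 4365 CPM and 7993 CPM at 24 h. Over all 11760 genes, 50.8% had the higher ratio in the Vp16-TRF1ΔN line. Of the 788 genes counted as higher here, however, 536 had the lower ratio here and 252 the higher. Most genes counted as higher thus leaned the same way as the early targets, though less uniformly. Il11 had log2 ratios of 5.81 and 7.90, and Itga5 of 2.44 and 3.17, while Edn1 was the 1 early target with the higher ratio here, 1.77 against 1.64. All 10 hyaluronan genes also had the lower ratio here, with Has2 at 6 to 1098 counts here and 4 to 7101 counts there. Among them Hmmr, which is on the mitotic list too, was lower with TGFβ (log2 ratio of -1.66 here). For Hmmr the lower ratio here is thus a larger fall and not a smaller rise. Cdh1 had -1.15 here and -1.77 there, and 10 of 13 tight junction genes other than claudins had the higher ratio here, with medians of -0.63 and -1.23. Claudins were divided, 2 of 4, as were polarity genes, 8 of 16, and Cdh2 had 1.35 here and 1.27 there.

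Mitotic genes were further below their 0 h level in the Vp16-TRF1ΔN line than in the TRF1ΔN line. Of 56, 54 had the lower ratio in the Vp16-TRF1ΔN line, with medians of -1.54 here and -1.06 there and a median difference of -0.47. Their summed level was alike at 0 h, 8308 CPM here and 8843 CPM there, and at 24 h was 2852 CPM and 4171 CPM. G1/S genes were divided, with 30 of 50 lower here and medians of -1.66 and -1.55, and histones had 41 of 55 lower here, with -2.01 and -1.89. Recombination and Fanconi genes had 19 of 23 lower here, with -1.43 and -1.13. The lower ratio here was also frequent in ribosome biogenesis (24 of 27), unfolded protein response (18 of 22) and ribosomal protein genes (55 of 76). The median differences of these last groups were smaller, at -0.06, -0.11 and -0.08. Cenpa, the centromeric histone variant, went from 64.8 to 21.9 CPM here and from 64.2 to 47.9 CPM there. Plk1 and Cdc20, a mitotic kinase and an activator of the anaphase-promoting complex, had log2 ratios of -1.75 and -1.90 here and -0.97 and -1.16 there, and Cenpe, a kinetochore kinesin, of -1.24 and -0.45. These 4 were chosen after their values were seen. Mki67 had -1.90 and -1.25.

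**Figure D5:**
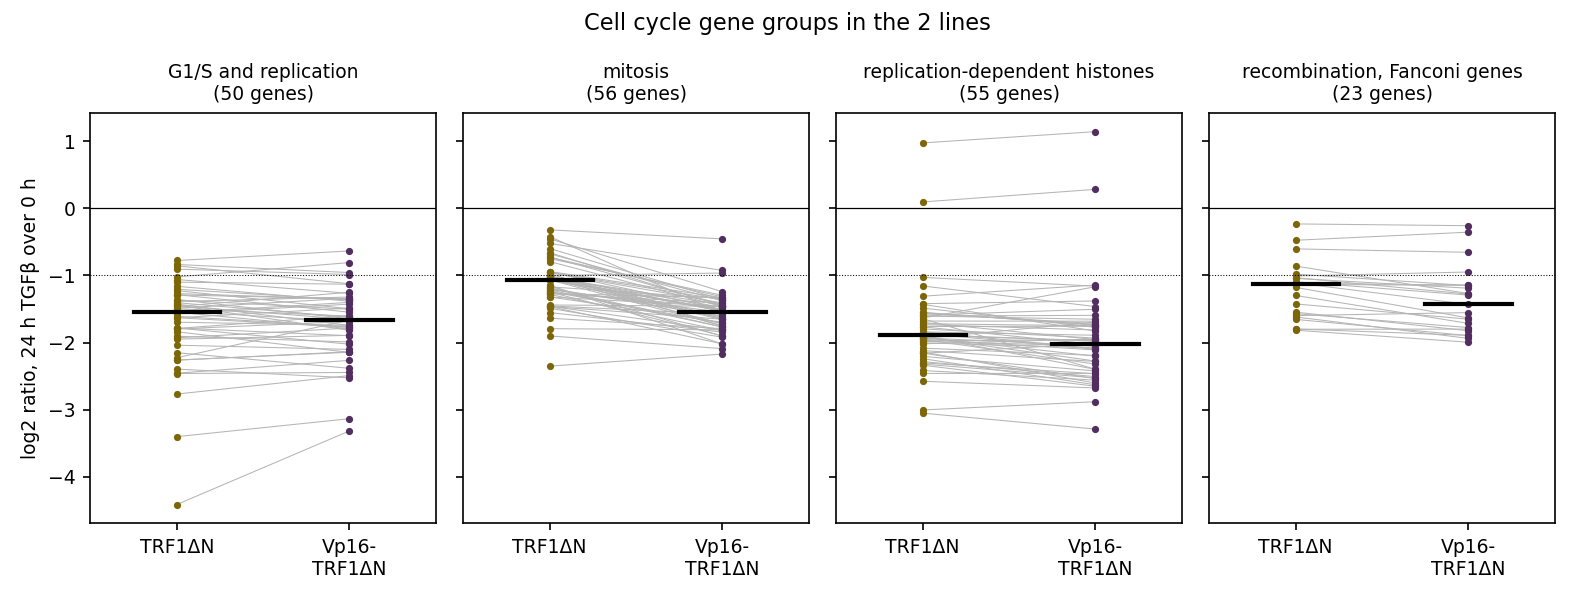
Log2 ratio of 24 h TGFβ over 0 h (vertical, prior count of 2) for the members at 1 CPM or more of 4 cell cycle groups, in the TRF1ΔN line (left points) and the Vp16-TRF1ΔN line (right points), with a grey line for each gene and a black bar at the median. In the panel of 56 mitotic genes 54 lines slope down to the right, against 30 of 50 in the G1/S panel.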

How the data were processed

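Total RNA of 4 libraries was sequenced after ribosomal RNA depletion. FastQC, STAR, HTSeq, DESeq2 and the build mm10 are named, without versions, per the submitters' processing notes. Neither annotation nor strandedness of the counting is stated there, so overlapping or antisense genes and near-identical copies are uncertain. The authors deposited counts per gene and log2 normalized values, which were found to equal log2 of 1 plus the count over a DESeq2 size factor. Symbols and coordinates for 21889 of 21971 genes came from GENCODE, promoters from RefSeq.

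Counts were scaled with edgeR 4.0.16 TMM factors over 4 libraries (R 4.3.3; Python 3.11.15, scipy 1.17.1). Ratios have exact Clopper-Pearson intervals conditional on the summed count; scripts were checked on simulated counts. A library at 0 was set to a floor of 3 counts. Genes named were the 15 largest ratios each way at 5 CPM or more, the 10 largest gains and losses in CPM (without predicted genes, pseudogenes, small RNA, ribosomal RNA and mitochondrial genes), up to 4 highest and 4 lowest members of each list, the TGFβ pathway, and 25 genes set by name. Acta2, Actb, Ankrd1, Ccn4, Col4a1, Ezh2, Hspa5 and Ocln fall outside this rule and were named after their values were seen, as were the genes so marked in the text. Members and the 31 lists were chosen with earlier results of these data known, and 4 list entries were corrected after values were seen. Some genes that the rule selects are not reported here. Alternatives were other size factors, filters, prior counts, intervals and the authors' normalized values.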

Additional observations from a re-analysis of the deposited data

Results flagged for a closer look

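Lpin3, a phosphatidate phosphatase of the lipin family, was the only gene counted in the Vp16-TRF1ΔN line whose counting interval lay wholly on the other side of 1 in the TRF1ΔN line, where it was not itself counted. It had 209 counts at 0 h and 75 at 24 h in the Vp16-TRF1ΔN line, a log2 ratio of -1.13, and 207 and 360 counts in the TRF1ΔN line, a log2 ratio of 0.97. The difference was not tested, since each group held 1 library.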

How the results depend on the processing

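The number of genes counted as higher was 788 and lay between 681 (scaled by total counts) and 797 (prior count of 0.5) under the other scalings, prior counts and intervals. It was 1366 without the filter at 1 CPM and 511 with the filter at 5 CPM. The number counted as lower, 1076, lay between 808 (5 CPM) and 1603 (no filter). Of 1543 listed or named genes, no counted one reversed under other size factors, total counts, scaling without mitochondrial genes or a prior count of 0.5. Of 194 counts of list members, 10 moved by over 1.5 times under total counts and 3 of 192 without mitochondrial genes. Scaling by total counts moved the median log2 ratio of all genes by -0.09. Medians of gap junction, FGF, NF-κB, imprinted, luminal, basal, immune and adipocyte lists changed sign between scalings, and no direction is given for them. No paired analysis was possible because each group held 1 library, and no replicate could be left out.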

Other observations

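Further gene groups were described in the same way, beside shares of 6.7% higher and 9.15% lower over all genes. Of 11 S100 genes 6 were lower and none higher: S100g, a calcium-binding protein of absorptive epithelium, was 4.31-fold lower (3.77 to 4.95), S100b 4.26-fold lower (2.89 to 6.47), and S100a4, often used as a fibroblast marker, went from 447 to 178 CPM, 2.51-fold lower (2.44 to 2.58). Annexins, calcium-dependent membrane-binding proteins, had 4 of 12 lower, with Anxa10 at 21.2-fold lower (15.8 to 29.3) and Anxa4 at 2.85-fold lower (2.799 to 2.903), and 1 higher, Anxa6, 2.26-fold higher (2.13 to 2.39). Of 24 lysosomal genes 3 were higher and none lower, not far from those shares. The 3 were the cathepsins Ctsw, Ctsf (3.19-fold higher, 2.79 to 3.66) and Ctsl (2.69-fold higher, 2.65 to 2.73).

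Rbm47 and Mbnl3 were the 2 of 15 splicing regulators counted, 3.57-fold lower (3.37 to 3.78) and 4.14-fold lower (3.495 to 4.94). Rbfox2 and Qk, regulators linked to mesenchymal isoforms, had ratios of 1.71 (1.66 to 1.77) and 1.68 (1.64 to 1.73). Of 17 circadian genes 1 was higher, Bhlhe40 (3.97-fold higher, 3.75 to 4.195), and 1 lower. Of 23 sphingolipid genes, Sphk1, sphingosine kinase 1, was 2.86-fold higher (2.599 to 3.15), and Sptssb and Sgpp2 were lower, Sgpp2 at 2.24-fold lower (1.77 to 2.85). The counts of splicing, circadian and sphingolipid genes were not far from the shares over all genes, 6.7% higher and 9.15% lower. Kitl, which encodes stem cell factor, had a log2 ratio of -0.63 here and -2.31 in the TRF1ΔN line, and Rspo3, an R-spondin, 1.55 and 0.25. Both were chosen after their values were seen, and these differences were not tested.

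Genes counted as higher with a large excess over the TRF1ΔN line, named after their values were seen, included Synpo (log2 ratios of 3.66 and 2.72, from 0.789 to 10.6 CPM here and from 0.924 to 6.34 CPM there), Gbp2 (1.01 and 0.02, from 6.43 to 12.96 CPM and from 4.39 to 4.44 CPM) and Cbs, cystathionine β-synthase (1.11 and 0.33, from 12.1 to 26.2 CPM and from 10.5 to 13.1 CPM). Lrrc32 also had the larger ratio here, 4.48 against 3.21, but a lower level at both times, from 0.905 to 21.3 CPM here and from 7.16 to 66.5 CPM there. Several groups had the higher ratio here more often than the 50.8% of all genes. Interferon-stimulated genes did in 18 of 23 cases, with medians of 0.46 and 0.06, chemokines in 11 of 14 and NF-κB genes in 19 of 25. S100 genes did in 10 of 11 cases, annexins in 11 of 12, and pentose phosphate and TCA cycle genes in 22 of 26. The medians of these last 3 groups were below 0 here (-1.05, -0.46 and -0.34). Of the 1076 genes counted as lower here, 60.4% had the higher ratio here. These differences were not tested.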
